A study of Mus musculus with 15 samples.

Results

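Colon of mice with an inactive telomerase subunit was compared with colon of wild-type mice after experimental colitis, gene by gene. The comparison used 6 of the 15 RNA sequencing libraries of the study, 3 from TERT VAA mice and 3 from TERT wild-type (WT) mice, all given dextran sulfate sodium (DSS), and it covered 17477 of 32544 genes in the count table, those expressed highly enough to be tested. VAA is an allele whose product lacks telomerase activity by the series description; WT mice carry the normal gene on both chromosomes, TERT+/+. Mice of both groups were 8 to 12 weeks old and drank 3% DSS for 4 days and plain water for the next 4 days, and colon was taken on day 8. The remaining 9 libraries were untreated WT, VAA and knockout (KO, TERT-/-) colon, 2 of each, and 3 of KO colon after DSS. The sources used here do not say how the VAA allele was made. The labels do not state that replicates came from separate mice, so the spread behind each p-value may be technical. Whole colon was sequenced, so fewer cells of a type and less RNA per cell cannot be told apart.

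Telomerase extends chromosome ends, and Tert encodes its reverse transcriptase subunit, which copies the repeat from the RNA subunit Terc. DSS damages the colonic epithelium, lets luminal bacteria reach the mucosa and is followed by infiltration of neutrophils and monocytes and by repair of the crypts. Comparing VAA with WT asks what goes with an allele described as inactive; Tert protein was not measured.

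Under DSS few genes passed the test of VAA against WT colon. The smallest p among the lower genes belonged to Cftr, the chloride channel gene, at 39.0 ± 6.97 CPM in VAA and 92.8 ± 28.3 CPM in WT (SD, n = 3 each), and Clca3b, a chloride channel regulator gene, stood at 1866 ± 149 CPM in VAA and 1026 ± 184 CPM in WT. In the main edgeR fit, of all 15 libraries, neither passed (adjusted p = 0.221 and 0.268). After adjustment over all genes 1 gene was called, higher in VAA, which is 0.00572% of the genes tested, and 0 were called lower, with edgeR's quasi-likelihood test at a Benjamini-Hochberg adjusted p below 0.05. At an unadjusted p under 0.05 there were 1799 genes higher in VAA, 10.3% of those tested, and 1057 lower, 6.05%. These shares are the background for the counts below at that p in the fit of all libraries. For counts without the third VAA library the background is 2.78% higher and 2.79% lower. DESeq2, run only with all 15 libraries, called 36 genes from the same counts, 24 higher and 12 lower. Among the 36 were Cftr, Clca3b, Clca4c-ps, Tac1, Camk2b, Dirc2, Me3, Gas1, Gucy1a3, Cldn4, Reg4, Hspa8, Cbs, Eif3l, Hist2h2aa2, Entpd4, Csrp2 and Cd24a, which are described below with edgeR's values.

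Tert itself was read first. The WT DSS libraries held 26, 36 and 23 counts of Tert and the VAA DSS libraries 29, 12 and 7. The groups overlapped, with the first VAA library inside the WT range and the other two below it. Summed and scaled, VAA held 55.7% of the WT level with an exact 95% interval for counting error of 38.2% to 80.2%, and the fitted log2 difference was -0.91 ± 0.44 (SE), which did not pass (adjusted p = 0.316). Counts per gene do not show the VAA substitution, so Tert checks the KO label, with 0, 0 and 1 counts in the KO DSS libraries, and not the VAA label.

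Total counts of the 6 libraries ran from 10.56 to 17.54 M, and the third VAA library had the fewest. That library stood apart. Its score on the first principal component of the 6 libraries was 96.28 against -29.56 to 3.976 in the other 5, and smooth muscle, neuronal, endothelial and mesothelial genes were high in it, with summed levels given below. Results of edgeR are therefore given with it and without it, while DESeq2 was run only with it. Without it edgeR called 1 of 17361 genes (0.00576%), and 968 genes had an unadjusted p under 0.05 (5.58%), 483 higher (2.78%) and 485 lower (2.79%). Ddx3y, which is Y-linked, had 7 to 15 counts in each of the 6 libraries. Epithelial genes such as Epcam and the keratins were abundant throughout: the 14 genes of that list summed to between 10490 and 13000 CPM (a library's counts per M counts, scaled by the trimmed mean of M values) in all 6.

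By the naming rule genes were taken by smallest p among those whose groups did not overlap, which held for 1531 genes higher (8.76% of those tested) and 1383 lower (7.91%). With edgeR the 9 genes described for the higher direction by rank did not pass, with adjusted p values from 0.268 to 0.276, while DESeq2 called all 9. Clca3b, a member of the calcium-activated chloride channel regulator family (chromosome 3, 144822623 to 144849357, minus strand), stood at 1171, 1086 and 818.5 CPM in WT and at 1990, 1700 and 1907 CPM in VAA. The log2 difference was 0.86 ± 0.15, and 0.84 ± 0.16 without the third VAA library. In untreated colon Clca3b stood at 121.5 and 155.2 CPM in WT and at 192.5 and 205.7 CPM in VAA, also higher in VAA without overlap (0.52 ± 0.18, untreated adjusted p = 1). Most but not all genes of this family lay the same way. Of 8 Clca genes tested, a list drawn up after values were seen, 6 had a positive and 2 a negative difference. At an unadjusted p under 0.05 5 were higher, both with and without the third VAA library, and those 5 did not overlap between groups. Clca4b, an abundant colonic member, stood at 2099, 1384 and 1570 CPM in WT and at 2426, 3241 and 2191 CPM in VAA. The pseudogene Clca4c-ps stood at 17.64, 14.02 and 9.435 CPM in WT and at 34.05, 36.12 and 69.19 CPM in VAA. Clca1, a secreted product of goblet cells, overlapped fully at 233.3 to 359.3 CPM in WT and 130.6 to 413.3 CPM in VAA. These genes are close copies of each other, so estimated counts may be split between them.

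Tac1, which encodes the precursor of substance P, stood at 40.24, 26.35 and 23.88 CPM in WT and at 58.9, 62.7 and 73.51 CPM in VAA (log2 difference 1.11 ± 0.20). Camk2b, a calcium-dependent kinase subunit of excitable cells, stood at 8.091, 11.34 and 12.97 CPM in WT and at 32.07, 22.59 and 59.31 CPM in VAA, and in untreated colon at 8.814 and 10.96 CPM in WT and 21.96 and 20 CPM in VAA (untreated adjusted p = 1). Dirc2, a lysosomal membrane transporter, stood at 55.62, 46.57 and 48.65 CPM in WT and at 71.47, 72.4 and 85.51 CPM in VAA. Of these 3, the third VAA library was the highest each time, and each difference was smaller without it (1.01 ± 0.20, 1.33 ± 0.26 and 0.51 ± 0.11). Me3, the mitochondrial malic enzyme, Gas1, a membrane receptor of Hedgehog signalling, and Gucy1a3, a subunit of the nitric oxide receptor guanylate cyclase, had log2 differences of 1.20 ± 0.26, 1.35 ± 0.29 and 1.10 ± 0.25, and of 0.88 ± 0.22, 0.92 ± 0.23 and 0.64 ± 0.15 without the third VAA library. Their values in the third VAA library were 77.64, 31.48 and 38.68 CPM, each the highest of the 6 libraries.

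Cftr, the apical chloride and bicarbonate channel (chromosome 6, 18170687 to 18322768, plus strand), had the smallest p of the genes lower in VAA. It stood at 63.34, 95.37 and 119.8 CPM in WT and at 38.02, 46.46 and 32.63 CPM in VAA after DSS. All VAA libraries lay below all WT libraries, but the WT libraries themselves spread over a wide range. The log2 difference was -1.25 ± 0.20 with a 95% interval from -1.68 to -0.82, and edgeR's adjusted p of 0.221 did not pass, while DESeq2 called the gene. Untreated Cftr was at 145 and 153.6 CPM in WT and at 180.2 and 157.1 CPM in VAA, and the fitted difference of DSS from untreated colon was -2.11 ± 0.22 in VAA and -0.68 ± 0.21 in WT. The interaction was -1.42 ± 0.31 and did not pass (adjusted p = 0.636). In KO colon after DSS Cftr stood at 101.5, 92.95 and 105.6 CPM, and VAA was lower than KO (-1.35 ± 0.20, adjusted p = 0.00137).

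Of 21 genes of epithelial salt and fluid transport, a list drawn up after values were seen, 4 were lower in VAA at an unadjusted p under 0.05 and 0 higher. Besides Cftr these were Slc12a2, the basolateral sodium, potassium and chloride cotransporter, and the potassium channel subunits Kcne3 and Kcnq1, which set the driving force for chloride exit. Kcne3 stood at 76.32, 95.68 and 60.8 CPM in WT and at 58.48, 52.64 and 36.08 CPM in VAA, and Kcnq1 at 39.22, 43.51 and 50.06 CPM against 36.64, 32.82 and 26.2 CPM. Over the whole list 9 genes had a positive and 12 a negative difference, from -1.25 to 1.04. The list's median was -0.14, and -0.24 without the third VAA library.

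Claudins seal or open the tight junction. Of 14 tested, a list drawn up after values were seen, 2 were higher and 2 lower at an unadjusted p under 0.05, with a median of 0.12; without the third VAA library 13 were tested, with 2 higher, 1 lower and a median of 0.02. Cldn4, a sealing claudin, stood at 54.96, 48.49 and 51.13 CPM in WT and at 80.13, 83.67 and 69.58 CPM in VAA (0.60 ± 0.13). In untreated colon it stood at 19.68 and 22.67 CPM in WT and at 35.4 and 33.54 CPM in VAA (untreated adjusted p = 1). Cldn2, which forms a cation and water pore, stood at 102.2, 164.4 and 136.9 CPM in WT and at 69.24, 77.89 and 18.91 CPM in VAA (-1.27 ± 0.36, and -0.88 ± 0.18 without the third VAA library). With edgeR neither passed adjustment (both adjusted p = 0.276), and DESeq2 called Cldn4. The other two at that p were Cldn5, of endothelium, which was higher (1.44 ± 0.45, and 0.92 without the third VAA library), and Cldn15, another pore-forming claudin, which was lower at 13.48, 20.3 and 18.58 CPM in WT and 15.58, 10.81 and 6.43 CPM in VAA, with overlap (-0.66 ± 0.30, and -0.41 without the third VAA library). Reg4, a secreted lectin of the crypt base secretory cells, lay lower as well, at 38.12, 34.85 and 54.13 CPM in WT and at 12.87, 21.9 and 3.167 CPM in VAA (-1.71 ± 0.41, and -1.29 ± 0.23 without the third VAA library). Without the library that stood out, groups did not overlap for 2037 genes higher in VAA (11.7%) and 1815 lower (10.4%), Cldn4, Cldn2 and Reg4 among them, and these 3 genes had edgeR adjusted p values of 0.4915 to 0.521.

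**Figure D1:**
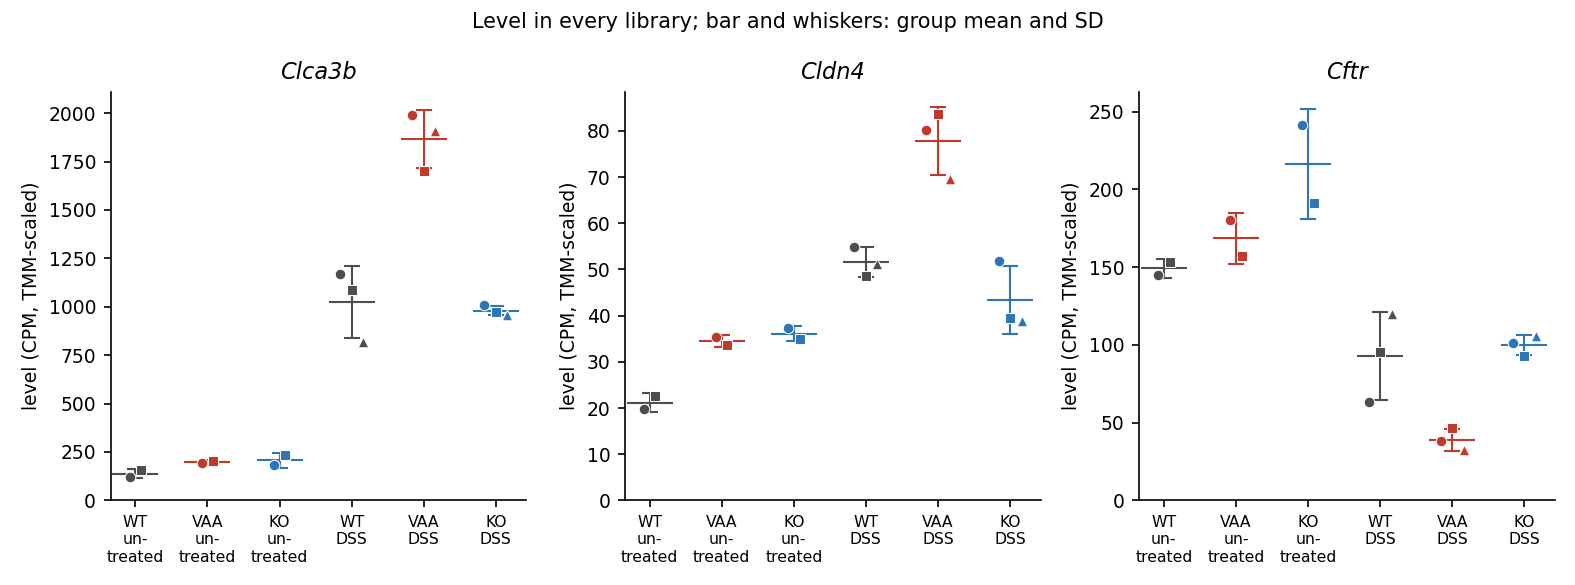
Level in CPM (linear axis from 0) of Clca3b, Cldn4 and Cftr in each of the 15 libraries, by genotype (grey WT, red VAA, blue KO) and treatment; circles, squares and triangles are replicates 1, 2 and 3, and the horizontal bar with whiskers is the group mean with its SD. For Cftr the 3 VAA DSS libraries sit at 32.63 to 46.46 CPM, below all others, and for Clca3b at 1700 to 1990 CPM, above all others. In VAA against WT none of the 3 genes passed adjustment in the main edgeR fit, and DESeq2 called all 3.

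The other 9 genes named for the lower direction by rank had varied roles. Hspa8, the constitutive cytosolic Hsp70 chaperone, stood at 2168, 2601 and 1213 CPM in WT and at 1070, 950.6 and 838.8 CPM in VAA. Untreated levels were 995.4 and 878.9 CPM in WT and 1197 and 1189 CPM in VAA, so WT replicates 1 and 2 after DSS were the high ones, and the heat-inducible Hspa1b ranged from 10.38 to 201.4 CPM within WT. Among 31 heat shock chaperone genes, a list drawn up after values were seen, 5 were higher and 7 lower at an unadjusted p under 0.05, with a median of -0.39; without the third VAA library 0 were higher and 3 lower, with a median of -0.19. Cbs, an enzyme that turns homocysteine into cystathionine, stood at 15.16, 26.58 and 26.42 CPM in WT and at 11.43, 9.534 and 3.935 CPM in VAA. Hsd17b10, a mitochondrial dehydrogenase, was even within groups, at 22.05 to 24.28 CPM in WT and 15.16 to 16.7 CPM in VAA (-0.51 ± 0.12). Eif3l, a translation initiation factor subunit, was at 140.4 to 161.2 CPM in WT and 77.54 to 117.9 CPM in VAA (-0.61 ± 0.14). Hist2h2aa2, a core histone gene with an almost identical copy beside it, and Entpd4, a Golgi and lysosomal nucleotidase, had log2 differences of -0.96 ± 0.21 and -0.73 ± 0.16. Csrp2, a LIM domain protein, Cd24a, a surface glycoprotein, and Cd320, the receptor for vitamin B12 bound to transcobalamin, had -0.61 ± 0.14, -0.76 ± 0.18 and -0.94 ± 0.22. All 10 genes named for this direction by rank, Cftr included, had edgeR adjusted p values from 0.221 to 0.276, and DESeq2 called all of them but Hsd17b10 and Cd320.

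**Figure D2:**
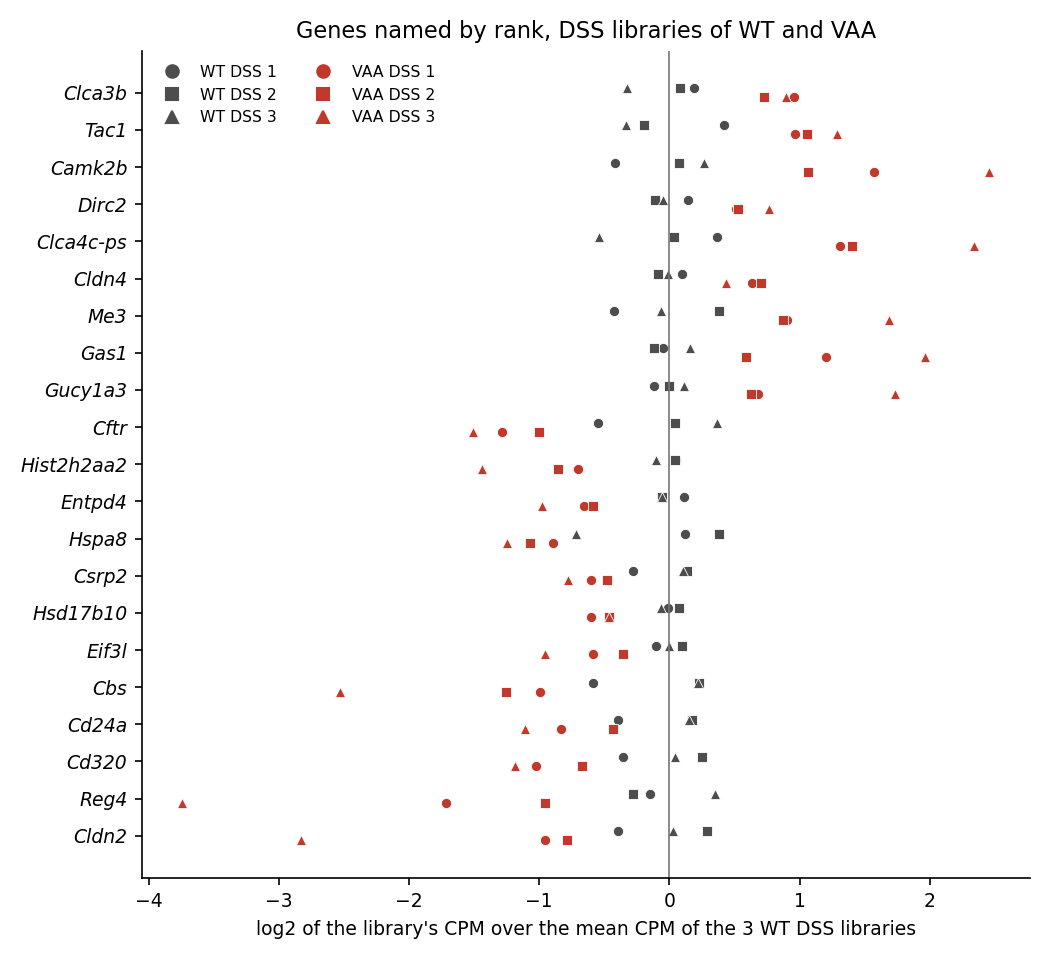
Log2 of each DSS library's CPM over the mean CPM of the 3 WT DSS libraries (horizontal axis) for the genes named by rank (rows), with WT libraries in grey, VAA libraries in red and replicates 1, 2 and 3 as circles, squares and triangles. Red and grey points do not overlap in any row, since the naming rule asked for that, and the third VAA library is the farthest from WT in every row but those of Clca3b, Cldn4 and Hsd17b10.

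Telomerase needs partners beside Tert, and of 10 genes of the holoenzyme 9 were tested. None was called. At an unadjusted p under 0.05 there were 5 lower and 0 higher, with a median log2 difference of -0.55; without the third VAA library 2 were lower and the median was -0.27. The lowest p belonged to Nop10, a protein of the RNA particle's scaffold, at 21.58, 29.57 and 20.23 CPM in WT and 16.24, 18.2 and 9.405 CPM in VAA. Ruvbl1, an ATPase of the assembly complex, followed at 24.93, 23.98 and 18.1 CPM against 17.63, 16.01 and 10.17 CPM. Both also serve ribosome production or chromatin and are not specific to telomerase. Of 13 shelterin and telomere maintenance genes 1 was lower at that p, 7.69% beside 6.05% of all genes. It was Ctc1, a subunit of the complex that binds telomeric single strands, and the list's median was -0.10. Without the third VAA library 0 were lower and the median was -0.02.

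The series' title names the cGAS and STING pathway, in which cytosolic DNA leads to type I interferon. Mb21d1, which encodes the DNA sensor cGAS, stood at 10.35, 9.958 and 7.017 CPM in WT and at 10.47, 8.379 and 3.647 CPM in VAA (-0.26 ± 0.32, adjusted p = 0.68). Tmem173, which encodes the adaptor STING, stood at 50.37, 43.13 and 22.41 CPM in WT and at 38.32, 47.04 and 29.27 CPM in VAA (-0.01 ± 0.25, adjusted p = 0.987). Both overlapped between groups. The 95% interval of the difference ran from -0.96 to 0.44 for Mb21d1 and from -0.55 to 0.53 for Tmem173, so differences within these limits were not excluded. Over 22 pathway genes the median was -0.02, and 0.06 without the third VAA library. At an unadjusted p under 0.05, 2 were higher and 0 lower, 9.09% higher beside 10.3% of all genes. These were Trim56, a ubiquitin ligase of the pathway, and Unc93b1, the chaperone of endosomal Toll-like receptors.

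Interferon-stimulated genes spread widely within each genotype. Of 34 type I response genes 1 was higher at an unadjusted p under 0.05, Usp18, 2.94% beside 10.3% of all genes. Of 24 interferon gamma response genes 0 were higher at that p. The summed level of the interferon gamma list was 2267, 1010 and 649.1 CPM in WT and 1226, 2567 and 954.3 CPM in VAA. One library in each genotype, WT replicate 1 and VAA replicate 2, was high and the rest were lower. The medians were 0.22 (type I) and 0.25 (gamma), and 0.44 and 0.52 without the third VAA library.

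Major histocompatibility complex (MHC) class I genes present peptides to CD8 T cells. Most lay higher in VAA, 19 with a positive and 2 with a negative log2 difference, from -0.14 to 0.65. Of 21 tested 6 were higher at an unadjusted p under 0.05 and 0 lower, 28.6% beside 10.3% of all genes, and none was called. The median was 0.28 with and 0.29 without the third VAA library, where 4 were higher at that p. H2-D1, a classical heavy chain, stood at 804.9, 810.3 and 702.5 CPM in WT and at 1018, 931.7 and 1191 CPM in VAA (0.44 ± 0.13, adjusted p = 0.276). H2-Q4 stood at 101.2, 83.42 and 74.12 CPM in WT and at 110.6, 131.1 and 163.9 CPM in VAA. Heavy chain genes resemble each other closely, so their estimated counts may be split. Among 21 targets of NF-kB, the transcription factor of inflammatory signalling, 5 were higher at that p and 0 lower, and 3 were higher without the third VAA library. Zc3h12a, an RNase that degrades cytokine messages, stood at 107.7, 67.87 and 70.7 CPM in WT and at 113.9, 123.8 and 169.8 CPM in VAA, and Rel, a subunit of the factor, at 91.26, 68.79 and 63.27 CPM against 104.2, 116.8 and 118.2 CPM.

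Infiltrating cells showed no called gene either. Summed neutrophil markers were 593.6, 651 and 568.8 CPM in WT and 899.8, 634.6 and 961.3 CPM in VAA. At an unadjusted p under 0.05, 2 of 22 were higher, 9.09% beside 10.3% of all genes. Monocyte and macrophage markers summed to 1445, 1423 and 1203 CPM in WT and to 1747, 1807 and 1603 CPM in VAA, with 5 of 22 higher at that p and 3 without the third VAA library. The macrophage sums did not overlap between genotypes, but the differences of single markers were modest, with a median of 0.29 (0.23 without the third VAA library). Of 21 cytokines and chemokines tested 1 was higher at that p, 4.76% beside 10.3% of all genes. It was Cxcl3, a chemokine for neutrophils, at 9.184, 6.281 and 7.725 CPM in WT and 15.22, 12.37 and 10.08 CPM in VAA. Of 20 T and NK cell markers 2 were higher at that p and 0 lower, 10% beside 10.3% of all genes, and the median was -0.07 (0.13 without the third VAA library). These were Gata3, a transcription factor of helper T cells, and Foxp3. Foxp3, which marks regulatory T cells, stood at 2.041, 1.455 and 1.592 CPM in WT and 3.489, 2.369 and 2.879 CPM in VAA (adjusted p = 0.276), and B cell markers ranged from 136.2 to 211.9 CPM in WT and from 47.12 to 271.1 CPM in VAA.

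Repairing colon epithelium takes on a fetal-like program while crypt stem cell genes recede. Of 20 fetal-like genes 6 were higher in VAA at an unadjusted p under 0.05 and 0 lower, and 2 without the third VAA library, Plet1 and Areg. Plet1, an epithelial surface protein, stood at 142.4, 237.6 and 97.3 CPM in WT and at 603.9, 283.2 and 328.3 CPM in VAA (1.35 ± 0.37, adjusted p = 0.276; 1.47 ± 0.38 without the third VAA library). Of 14 stem cell and Wnt target genes 3 were lower at that p and 1 higher, and 2 and 0 without the third VAA library. Lrig1, a growth factor receptor inhibitor of crypt progenitors, stood at 158.7, 181.5 and 178.5 CPM in WT and at 137.9, 134.3 and 131.5 CPM in VAA. Ephb3, a guidance receptor of the crypt base, stood at 31.49, 31.64 and 27.95 CPM against 25.15, 23.34 and 16.22 CPM. Goblet cell genes had 3 of 19 lower and 0 higher, and 1 lower and 0 higher without the third VAA library. Among them was Agr2, a mucin folding enzyme, with the lowest p at 520.9, 747 and 730.8 CPM in WT and 420.1, 549.9 and 311.3 CPM in VAA. Colonocyte genes went both ways, with 2 higher and 2 lower of 17 (1 and 3 without the third VAA library), and general epithelial genes had 0 of 14 at that p.

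By summed level, most but not all gene lists of the colon wall were highest in the third VAA library. All 15 smooth muscle genes had a positive difference, 6 at an unadjusted p under 0.05, with a median of 0.85. Their summed level was 1585, 1082 and 1375 CPM in WT and 1272, 1834 and 3807 CPM in VAA, so the third VAA library held more than the other 2 together. Without it the median was 0.28 and 1 of 15 was below that p. Enteric neuron genes summed to 68.88, 99.12 and 82.5 CPM in WT and to 167.4, 74.31 and 487.6 CPM in VAA, and their median went from 1.53 with the library to 0.46 without it. Endothelial genes summed to 143.4, 154.1 and 105.6 CPM in WT and to 180.1, 128.9 and 459.3 CPM in VAA, and their median went from 1.02 to 0.25. Mesothelial genes, of the outer lining of the colon, had a median of 2.13, and 1.64 without the library, since the first VAA library held 47.17 CPM and the third 99.81 CPM against 12.03 to 16.85 CPM in WT and 14.62 CPM in the second. Fibroblast and matrix genes had a median of 0.66 with it and 0.20 without it. The 3 genes of interstitial cells of Cajal, the pacemakers of gut muscle, summed to 172.5, 106.2 and 153.4 CPM in WT and to 92.23, 195.4 and 125.8 CPM in VAA. The sum of this list was thus not highest in the third VAA library, but 2 of its 3 genes were. Kit stood at 43.95 CPM there against 17.01 to 23.98 CPM in the rest, and Etv1 at 25.82 CPM against 6.05 to 10.23 CPM. The remaining gene, Ano1, had a negative log2 difference (-0.31). Of the 2856 genes with an unadjusted p under 0.05 in either direction, 781 (27.3%) kept such a p without the third VAA library. The part of these cells' RNA in the results above was not tested.

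Proliferation genes were lowest in the same library. The 26 cell cycle genes all had a negative difference, 8 at an unadjusted p under 0.05, with a median of -0.59, and -0.25 without the third VAA library, where 4 were below that p. Mcm7, a subunit of the replicative helicase, stood at 69.25, 76.37 and 73.53 CPM in WT and at 50.96, 61.77 and 23.22 CPM in VAA. All VAA libraries lay below WT, and the third far below the other 2. Fatty acid oxidation genes had 5 of 18 lower and 0 higher at that p with a median of -0.23, and 3 lower and 2 higher with a median of -0.08 without the third VAA library. Among those lower was Acadm, a mitochondrial dehydrogenase of medium-chain fatty acids, at 73.4, 55.77 and 74.95 CPM in WT and 45.06, 55.18 and 45.2 CPM in VAA. Cholesterol synthesis, with 20 genes, and the unfolded protein response, with 14, had 0 at that p in either direction. Of 21 targets of p53, the DNA damage response factor, 1 was higher, Pmaip1, 4.76% beside 10.3% of all genes, and the median was 0.08. Adipocyte genes, with a median of -1.40, rested on WT replicate 1, which held 259.8 CPM of them against 22.59 to 63.44 CPM in the other 5 libraries.

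**Figure D3:**
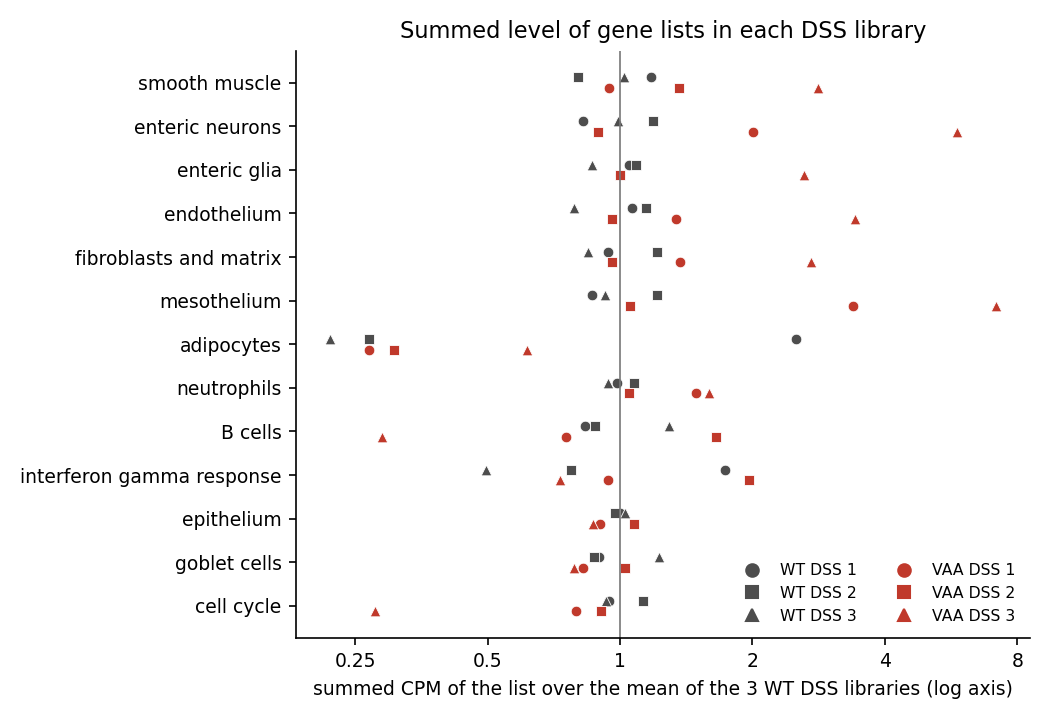
Summed CPM of marker lists in each DSS library over the mean of the 3 WT DSS libraries (horizontal log axis), WT in grey and VAA in red, with replicates 1, 2 and 3 as circles, squares and triangles. The third VAA library is the highest for smooth muscle, neurons, glia, endothelium, fibroblasts and mesothelium and the lowest for cell cycle genes, while epithelial sums lie close together in all 6 libraries.

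**Figure D4:**
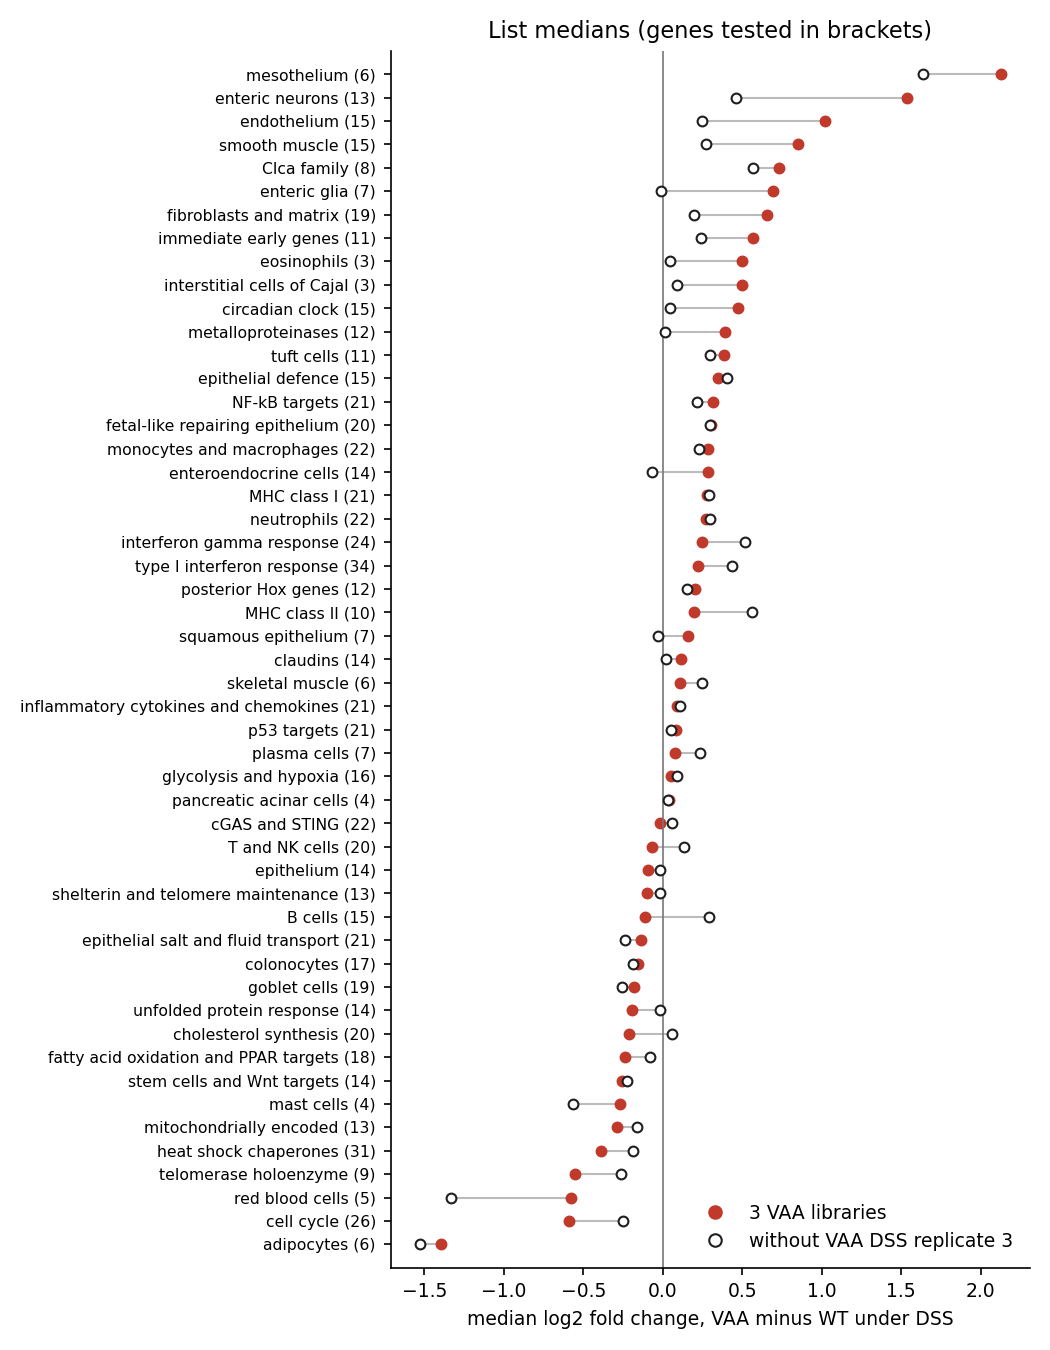
Median log2 difference of VAA minus WT under DSS over the tested genes of each of 51 lists (number tested in brackets), in red from all libraries and in white without the third VAA library. Wall lists move toward 0 without it. The medians of MHC class I, fetal-like, neutrophil and some other lists stay near their value.

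Tert lies on chromosome 13 at 73626911 to 73649843 (mm10), and genes beside an engineered locus are inherited with it. Of 103 genes tested within 10 Mb, 0 were called in VAA against WT under DSS, with a smallest adjusted p of 0.276. At an unadjusted p under 0.05 there were 4 higher and 9 lower, 12.6% beside 16.3% of all genes, and 0 of the 103 had such a p in untreated colon. When the third VAA library was left out, 8 of 102 had such a p, beside 5.58% of all genes, so the share was not below that of all genes in both fits.

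The genotype difference in untreated colon used 2 libraries of each genotype that are not in the DSS comparison. Ddx3y had 914 counts in the second untreated WT library and 8 to 20 in the other 3, so the untreated WT libraries differ in a Y-linked gene, and the part of this in the untreated and interaction results was not tested beyond leaving that library out. The untreated comparison called 0 genes with edgeR, and 233 (1.33%) had an unadjusted p under 0.05. Among the 2856 genes at that p under DSS, 1004 (35.2%) had the same direction in untreated colon, beside 41.5% of all genes tested. Of the 781 that kept such a p without the third VAA library, 318 (40.7%) had the same direction, near the share of all genes. The test of the change in the genotype difference from untreated to DSS called 0 genes with edgeR or DESeq2, and 1259 (7.2%) had an unadjusted p under 0.05 with edgeR. Without the second untreated WT library edgeR's interaction test again called 0, and 879 had such a p.

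The number of genes called depended on single libraries. It was 0 without WT replicate 2, WT replicate 3 or VAA replicate 1, and 3 without WT replicate 1 (Cftr and Tac1 among them). Without VAA replicate 2 it was 848, 565 higher and 283 lower, which is 3.24% and 1.62% of the genes tested. Those called higher held 10 of 13 neuronal, 8 of 19 fibroblast, 7 of 15 endothelial and 5 of 6 mesothelial genes, but 0 of 15 smooth muscle and 0 of 7 glial genes. The median standard error of a log2 difference was 0.223, and for 63.7% of the genes tested, or 81.1% of the 12591 whose mean log2 CPM reached 2, the 95% interval excluded a difference of more than 2-fold either way. The spread behind these intervals was estimated over all 15 libraries, not from the 2 groups compared. With only the 6 DSS libraries, 1154 genes had an unadjusted p under 0.05, against 2856 in the main fit. In data simulated from these libraries the test called 7 of 50 genes changed 1.5-fold, 33 of 50 changed 2-fold, 47 of 50 changed 4-fold and 50 of 50 changed 8-fold. There the VAA libraries were given the WT means, so the high wall genes of the third VAA library were absent. Genes were drawn independently, and only genes above a minimum expected count were changed. How often such changes would be called in the real libraries was not tested.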

How the data were processed

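Total RNA libraries of mouse colon (paired reads of 76 bases) were grouped by the labels. Per the submitters' processing notes the tool was kallisto 0.46 and the build mm10, which gave the estimated counts per gene that the authors deposited, all whole numbers. No source used here names the annotation or how transcripts were summed. A deposited table of log2 CPM for 17531 genes, recomputed from the counts within 0.018 at a prior count of 2, served as an alternative. The files held 0 columns of other samples.

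The main test was edgeR 4.0.16 under R 4.3.3: filterByExpr over 6 groups, trimmed mean scaling, 1 mean per group over all 15 libraries (9 residual degrees of freedom), quasi-likelihood test of VAA DSS minus WT DSS, and Benjamini-Hochberg adjustment over 17477 genes at 0.05. CPM are a library's counts per M counts, scaled by those factors. Alternatives used limma 3.58.1, DESeq2 1.42.0, other scalings and samples, and each library left out. Library totals of 10.56 to 17.54 M limit low genes most, and replicate chi-square per degree of freedom of 11.96 or more was far above counting error.

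Named were Tert, then 10 genes per direction by fold change if called, else by smallest p, with groups that do not overlap and a mean log2 CPM of 2 or more (predicted models, immunoglobulin and T cell receptor segments left out), 5 per direction without VAA DSS replicate 3, up to 2 per list by p, Mb21d1 and Tmem173. The text names further list members after their values were seen. There were 47 lists of 720 genes, 675 tested, and 4 lists were added after seeing values (Clca, claudins, salt and fluid transport, heat shock chaperones). The comparison and the lists were chosen with earlier results of these data known. Replicate numbers did not pair the libraries: the correlation of same-numbered deviations was -0.0535, -0.101 and 0.0041. The fit was tested on simulated data. Reads, isoforms and the VAA substitution were not analysed here, and 1 result is not reported here.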

Additional observations from a re-analysis of the deposited data

How the results depend on the processing

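Under DSS, the count of genes called in VAA against WT was 1 (1 higher, 0 lower) and stayed so with DESeq2 size factors, limma on the deposited log2 values, library quality weights and an adjusted p under 0.10. It was 36 with the DESeq2 test (24 higher, 12 lower) and 2 with no expression filter (1 higher, 1 lower, the lower being Cftr). It was 0 (0 higher, 0 lower) with the replicate block, with only the 6 DSS libraries, with these and the replicate block, and with the DSS libraries less VAA replicate 3. The numbers did not pair the libraries, and for 0 of 3 numbers was the same-numbered library the closest. Leaving out 1 library at a time, the counts ran from 0 to 848 called, 0 to 565 higher and 0 to 283 lower. The interaction called 0 genes in every setting run.

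Of the values of named genes, 21 reversed their sign, none of them called, and the cause was not tested. Leaving out 1 library at a time, Mb21d1 ran from -0.57 to 0.046, Tmem173 from -0.29 to 0.23, Clca1 from -0.55 to 0.24, Mcpt2 from -0.50 to 1.42, Adipoq from -3.09 to 0.54, Cidec from -1.98 to 0.34, Hbb-bs from -1.33 to 0.52 and Ifit2 from -0.030 to 1.37. The Adipoq, Cidec and Hbb-bs values turned without WT replicate 1, those of Mb21d1 and Mcpt2 without VAA replicate 3. With the DSS libraries alone and no VAA replicate 3, Mb21d1 was at 0.032, Tmem173 at 0.13 and Clca1 at 0.23. With library quality weights, Mb21d1 was at 0.030, Tmem173 at 0.0097, Clca1 at 0.015 and Mcpt2 at -0.30. Tmem173 was at 0.033 with limma on the deposited log2 values, 0.0092 with the replicate block and 0.039 with the block in the 6 libraries.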
